A study of Mus musculus with 15 samples.

Results

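UCSF033_000770 and UCSF033_000772 are 2 of the 2500 probes of a custom microRNA array, picked by ID because their signal was higher in CD4 T cells rested in IL-2 than in the activated cells from which they came. MicroRNAs are short RNAs that pair with messenger RNAs and lower their translation or stability. A T cell that leaves quiescence after contact with antigen remodels its microRNAs as it grows and divides, and IL-2 keeps the activated cells alive once the stimulus is withdrawn. The files do not pair these IDs with microRNA names, so no function is attached to either probe here, and the labelled cell type could not be checked against marker microRNAs.

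The cells came from spleen and lymph nodes of C57/B6 mice aged 6 to 8 weeks and were isolated on magnetic beads coated for CD4. Untreated (naive) cells gave 2 arrays. Activation in wells coated with antibodies against CD3 and CD28 was sampled at 6, 12, 24, 42 and 65 h, with 2 arrays per time. Cells activated for 65 h, taken off the antibodies and rested in medium with IL-2 until day 7 gave 1 array. Rested day 7 cells put back on anti-CD3 and CD28 for 18 h gave 2 arrays. Total RNA (50 ng) was labelled with Cy3 for these one-colour arrays. All values are per RNA sample, so more cells holding an RNA and more RNA per cell cannot be told apart. Nothing in the labels tells whether 2 arrays of one group had separate mice or cultures as their source.

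The 15 arrays lay on 2 slides, each with 1 array of every group apart from the day 7 array, which was on slide 1. The first 42 h array, on slide 2, stood apart: 49.6% of its 15665 spots were marked as non-uniform against at most 0.134% elsewhere, and 2146 probes were detected on it against 640 to 950 on the other 14. Values and tests below therefore rest on the other 14 arrays. Results with all 15 are given for the tests and for the 42 h level of UCSF033_000772. A probe was taken as detected on an array if over 50% of its spots passed the scanner software's test for being well above background. The scaled level is a probe's mean signal as a percent of the array's 75th percentile over the 571 probes detected on all 14 arrays.

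From naive cells through 42 h neither probe was detected on any of these 9 arrays. UCSF033_000770 has 6 spots on an array and UCSF033_000772 has 7. Of the 54 spots of UCSF033_000770 on the 9 arrays, 0 were well above background, and of the 63 spots of UCSF033_000772 only 1 was. That spot, on the second 12 h array, read 21.1 intensity units and was marked as an outlier. The mean background-subtracted signal of an array lay between 0.0983 and 2.30 units for UCSF033_000770 and between 0.456 and 3.51 units for UCSF033_000772. Negative control spots had medians of 1.08 to 2.05 units on these arrays, and the highest on each array read 4.23 to 5.96 units. The array means of both probes lay below the highest negative control spot of their array. An unmarked spot of UCSF033_000772 on the second 12 h array read 5.65 units, above that array's highest control at 5.02.

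**Figure D1:**
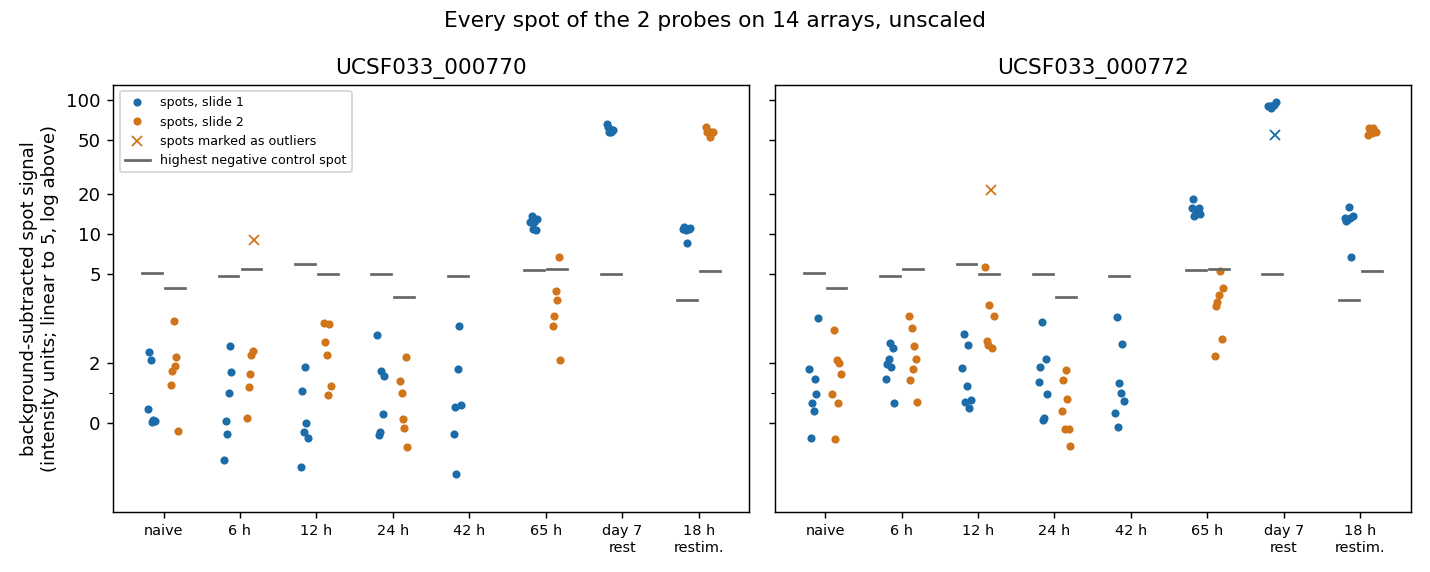
Background-subtracted signal of every spot of UCSF033_000770 (left) and UCSF033_000772 (right) by group, on an axis that is linear up to 5 intensity units and logarithmic above. Points are spots coloured by slide, crosses are spots marked as outliers, and each grey bar is the highest unmarked negative control spot of that array; the day 7 and restimulated spots lie above these bars, as do those of 65 h on slide 1.

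At 65 h the arrays disagreed. On slide 1 all 6 spots of UCSF033_000770 (10.6 to 13.6 units) and all 7 of UCSF033_000772 (13.5 to 18.1 units) were well above background. On slide 2 none was, with spots of 2.12 to 6.70 and 2.25 to 5.26 units. The highest negative control spots read 5.33 units on slide 1 and 5.49 units on slide 2. In scaled terms UCSF033_000770 stood at 2.09% on slide 1 and 0.359% on slide 2, and UCSF033_000772 at 2.63% and 0.345%. The lowest detected probe of the slide 2 array stood at 0.675%, below the slide 1 levels of both probes.

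At day 7, after rest in IL-2, both probes gave their highest scaled level in the series. The 6 spots of UCSF033_000770 read 57.4 to 65.8 units, with a coefficient of variation of 5.26%, and the array's scaled level was 7.40%. The 6 unmarked spots of UCSF033_000772 read 88.0 to 96.3 units (coefficient of variation 3.06%), with a scaled level of 11.2%. One more spot of UCSF033_000772, marked as an outlier, was also well above background. The spread among spots is measurement error within 1 array and says nothing of the spread between cultures, for which day 7 has no second array.

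Day 7 was the group whose values chose these probes, so its differences are given as a description, with no test. Against the 65 h array on the same slide, the day 7 level was 3.54-fold higher for UCSF033_000770 and 4.24-fold higher for UCSF033_000772. Against the mean of both 65 h arrays the log2 differences were 2.74 and 3.17, where the second 65 h array enters at the floor set for undetected values (0.583% of the 75th percentile). The median difference of the 882 tested probes was -0.08. Against naive cells, where the probes were not well above background, UCSF033_000770 was at least 12.7-fold higher and UCSF033_000772 at least 19.2-fold higher. Such a bound sets the brighter group's mean against, for each array of the dimmer group, the highest of the floor, its lowest detected signal and the probe's own signal. It holds only for the scaling and floor used. With no scaling the log2 differences from naive cells were 2.67 and 3.27, where the scaling used gave 3.67 and 4.26.

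**Figure D2:**
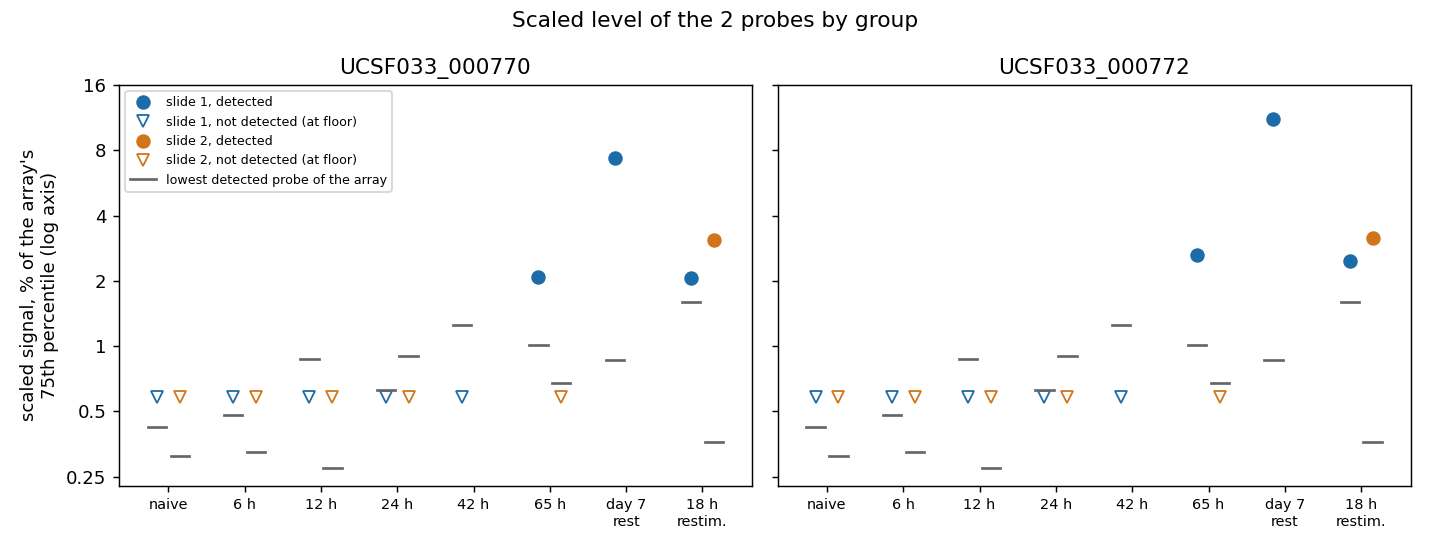
Scaled level of each probe by group, as a percent of the array's 75th percentile on a log axis; filled circles are arrays where the probe was detected, open triangles arrays where it was not and stands at the floor, and grey bars the lowest detected probe of each array. The day 7 array lies above the restimulated arrays and above the single 65 h array with a detected level.

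Restimulation for 18 h left both probes detected on both slides, below the day 7 level. UCSF033_000770 had scaled levels of 2.07% on slide 1 and 3.10% on slide 2, and UCSF033_000772 had 2.46% and 3.15%. On slide 1 they stood just above the lowest detected probe of that array, at 1.60%, and 6 of the 7 spots of UCSF033_000772 were well above background. Within slide 1 the day 7 level was 3.57-fold and 4.54-fold that of restimulated cells, for UCSF033_000770 and UCSF033_000772 respectively. The same contrast over both slides gave log2 differences of -1.55 and -2.00 (restimulated minus day 7), against a median of 0.06 over the 882 tested probes.

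The size of the difference between day 7 and the restimulated array of slide 2 depended on the scaling. Before scaling, the restimulated array of slide 2 read 57.9 units for UCSF033_000770, close to the 60.5 units of the day 7 array, and that of slide 1 read 10.5. For UCSF033_000772 the unscaled signals were 58.9 and 12.5 units on the restimulated arrays and 91.4 units at day 7. The 75th percentile used for scaling was 1868 units on the restimulated array of slide 2, 509 on that of slide 1 and 818 on the day 7 array. With no scaling the log2 differences of restimulated from day 7 cells over both slides were -1.29 and -1.75. No day 7 array lay on slide 2, so only slide 1 compares these groups within a slide.

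Restimulated and 65 h cells fell in the same range on slide 1 and apart on slide 2. On slide 1 the log2 difference of restimulated from 65 h cells was -0.02 for UCSF033_000770 and -0.10 for UCSF033_000772. On slide 2, where the 65 h values lay at the floor, it was 2.41 and 2.44. The order of the groups by mean was therefore day 7, then restimulated cells, then 65 h, with the 65 h and restimulated arrays overlapping for both probes, and no order among naive, 6, 12, 24 and 42 h, which all lay at the floor.

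Only comparisons in which neither group was 65 h or day 7 were tested. limma was run across the 882 probes detected on both arrays of at least 1 group. Its spread was pooled over all groups with 2 arrays, so the 65 h arrays still entered the SE. For UCSF033_000770 and UCSF033_000772 the SD was 1.30 and 1.54 log2 at 65 h. It was 0.41 and 0.25 log2 for restimulated cells, and 0 where both arrays lay at the floor. An SD of 0 there is set by the floor and is not a measured spread between arrays. The groups at the floor still entered the pooled spread. They made the SE of both probes smaller than the 65 h and restimulated arrays alone would give, so the p-values depend in part on the floor. Restimulated cells were higher than naive cells by 2.12 log2 for UCSF033_000770 (SE 0.52, limma adjusted p = 0.0152) and by 2.26 log2 for UCSF033_000772 (SE 0.58, limma adjusted p = 0.0187), with n = 2 arrays each and naive at the floor. Both probes entered this test only because restimulated cells detected them on both arrays, so these p-values are not independent support for the difference. With all 2500 probes tested the limma adjusted p was 0.0938 for UCSF033_000770 and 0.110 for UCSF033_000772, and neither was called. As bounds under the scaling and floor used, the restimulated levels were at least 4.35-fold and at least 4.78-fold those of naive cells. Both probes were higher on both slides, by 1.83 and 2.41 log2 for UCSF033_000770 and by 2.08 and 2.44 log2 for UCSF033_000772 on slides 1 and 2. In this comparison 41.0% of all tested probes were called in either direction and 25.9% were called higher, so a call here is common. The median difference of the 882 probes was 0.37 log2. With the percentile taken over all probes that median was -0.09, and the calls were 108 higher and 169 lower where the scaling used gave 228 and 134. Quantile normalization gave 145 and 159, no scaling 24 and 81, and normexp background correction 185 and 70. The authors' values gave 97 and 113, but over only the 693 of the 882 probes that they include. With the slide as a block, entered as a fixed term, the adjusted p of limma was 0.0131 for UCSF033_000770 and 0.0148 for UCSF033_000772.

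The call among the 882 probes also depended on single arrays. With all 15 arrays the adjusted p was 0.0415 and 0.163 in limma, where UCSF033_000770 has no value on the first 42 h array because all of its spots there were marked, and 15.1% of probes were called. Without the first or the second naive array the adjusted p rose to 0.0741 and 0.0734 for UCSF033_000770 and to 0.0838 and 0.0863 for UCSF033_000772. Without the first restimulated array it was 0.0719 and 0.0772, with the lone remaining array assumed to vary like the other groups. Leaving out either 65 h array cut the SE, to 0.23 for UCSF033_000770 and 0.20 for UCSF033_000772.

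Against naive cells neither probe was called at 6, 12, 24 or 42 h. No call was possible there, since every value compared was held at the floor, so an unchanged level is not shown. The 42 h group had 1 array in this fit, assumed to vary like the other groups, and the earlier times had 2 each. All values lay at the floor, so the fitted differences were 0 and limma's adjusted p was 1 for both probes at each time, and no fold can be given. The share of tested probes called at these times was 0.680%, 1.36%, 11.8% and 26.6%. With all 15 arrays neither probe was called at these times, and the lowest limma adjusted p was 0.205. The share of probes called was then 0%, 0%, 0.220% and 22.0%. How low a level could have been seen differed between arrays: the lowest detected probe stood between 0.274% and 0.904% at 6 to 24 h and at 1.26% on the second 42 h array. No probe under 1.26% was detected on that 42 h array, and the 65 h level on slide 1 was 2.09% and 2.63%.

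The authors' deposited log2 values, whose scale and any lower limit are not given in the sources used here, were also highest at day 7 for both probes. Low values are tied there: an array holds 413 to 597 distinct values for 2191 probes, and both probes hold the same value on 3 of the 15 arrays, which are the second at 6 h, the first at 42 h and the first at 65 h. For UCSF033_000770 they lay between 4.34 and 4.52 on the 9 arrays from naive through 42 h, at 4.65 and 5.13 at 65 h, at 6.66 at day 7, and at 5.35 and 5.69 after restimulation. For UCSF033_000772 they lay between 4.36 and 4.60, then at 4.65 and 5.23, at 7.29, and at 5.54 and 5.72. No array of the 9 reached the lower 65 h value of its probe. Here limma gave 1.10 log2 for UCSF033_000770 (SE 0.21, adjusted p = 0.00411) and 1.19 log2 for UCSF033_000772 (SE 0.21, adjusted p = 0.00314) for restimulated against naive cells. This fit covered the 693 filtered probes that the authors' values include, fewer than the 882 tested above. With all 2191 probes of the authors' values tested, an alternative chosen after seeing the data, the limma adjusted p was 0.00634 and 0.00515. At 6 to 42 h the differences from naive lay between -0.07 and 0.09 log2, with SEs of 0.21 to 0.26 and adjusted p of 0.862 or more.

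**Figure D3:**
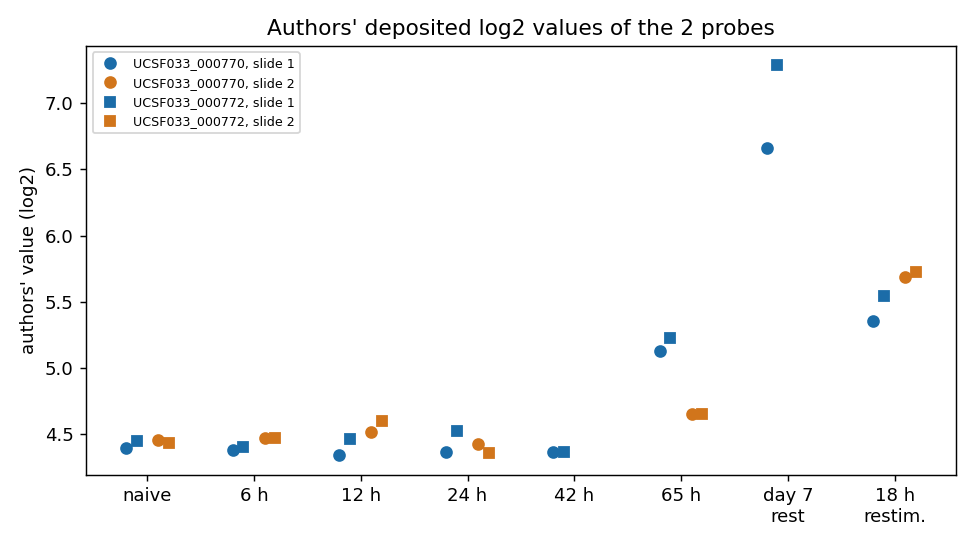
The authors' deposited log2 values of both probes by group, circles for UCSF033_000770 and squares for UCSF033_000772, coloured by slide, on 14 arrays. Values stay between 4.34 and 4.60 through 42 h and reach 6.66 and 7.29 at day 7.

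On the first 42 h array the scanner file and the value table gave different readings. In the scanner file the 6 spots of UCSF033_000770 read 250 to 658 units and all were marked as outliers, while 3 of the 7 spots of UCSF033_000772 were left unmarked, at 110 to 203 units. The value table held 4.47 for both probes on that array, within the range of the naive to 42 h arrays. The scanner reading is not used as a level.

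The 2 probes followed each other over the 14 arrays with Pearson's r = 0.998 on the scaled log2 values and 0.992 in the value table. Both values rest on 4 arrays with a detected level and 10 without, and the probes share arrays and scaling. The files do not say whether both probes target 1 microRNA.

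None of the 11 probes with neighbouring ID numbers was undetected through 42 h and detected at day 7. UCSF033_000771, which lies between them in number, was detected on 0 of the 14 arrays, as were UCSF033_000765, UCSF033_000766, UCSF033_000769, UCSF033_000773, UCSF033_000775 and UCSF033_000777. UCSF033_000767, UCSF033_000768, UCSF033_000774 and UCSF033_000776 were detected on all 14. On slide 1 the day 7 array differed from the 65 h array by -0.58, -0.72, 0.28 and 0.05 log2 for these, in the same order, where UCSF033_000770 and UCSF033_000772 had 1.82 and 2.08. UCSF033_000767 and UCSF033_000774 were 2.32 and 2.19 log2 higher after restimulation than at day 7 on that slide, the direction opposite to that of UCSF033_000770 and UCSF033_000772.

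**Figure D4:**
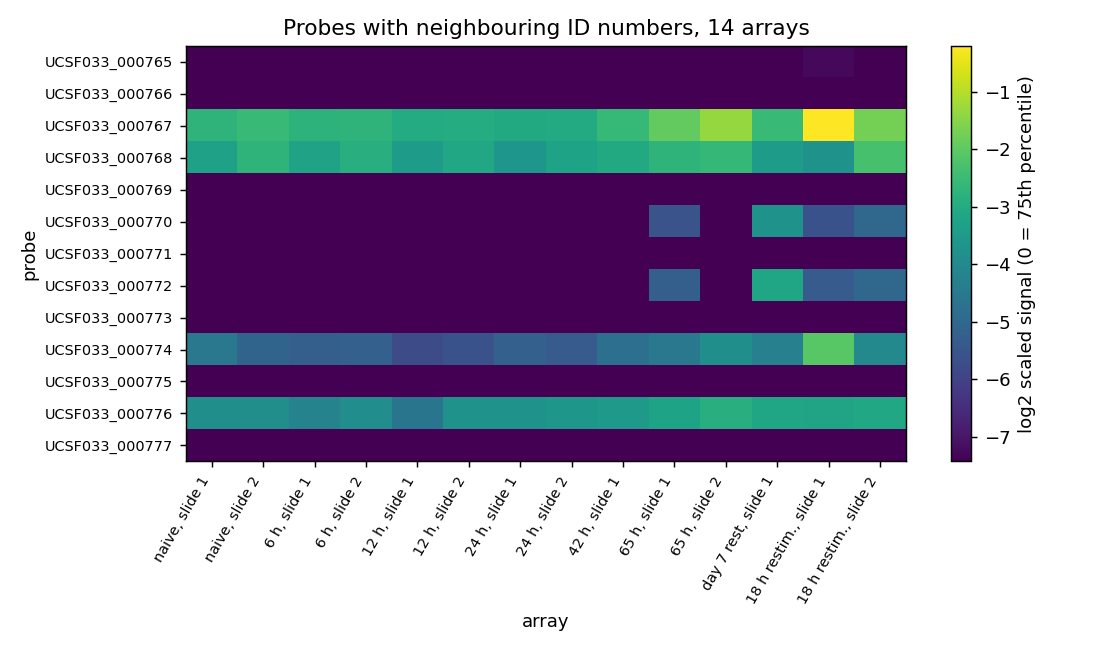
Scaled log2 signal (0 is the array's 75th percentile) of the 13 probes UCSF033_000765 to UCSF033_000777 on 14 arrays. UCSF033_000770 and UCSF033_000772 leave the floor on the slide 1 array at 65 h, at day 7 and on both restimulated arrays, and UCSF033_000771 between them stays at the floor.

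Of the other tested probes, the 5 most like the mean of the pair over the 14 arrays were UCSF033_000544 (r = 0.910), UCSF033_000630 (0.900), UCSF033_000810 (0.882), UCSF033_000946 (0.880) and UCSF033_000812 (0.877). UCSF033_000544 was detected on 6 of 14 arrays and lay at the floor from naive cells through 24 h, although it was detected on the second 12 h array. The other 4 were detected on all 14 arrays, naive ones included. Within slide 1 all 5 were higher at day 7 than at 65 h, by 0.73 to 1.65 log2. UCSF033_000810 and UCSF033_000812 did not come down after restimulation on slide 1 (differences from day 7 of 0.05 and 0.09), whereas UCSF033_000544 and UCSF033_000946 were lower, with differences of -1.83 and -1.94 log2. These differences come from 1 array each and were not tested.

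UCSF033_000542 and UCSF033_000543, also high at day 7, differ from the pair in being detected already in naive cells. They were detected on all 14 arrays, stood 4.36 and 4.30 log2 above naive cells at 65 h, and gained 2.21 and 2.19 log2 from 65 h to day 7 on slide 1. UCSF033_000770 and UCSF033_000772 were 0.92 and 1.09 log2 above the naive floor at 65 h. Those means join 1.84 and 2.18 log2 on slide 1 with 0 on slide 2, where 65 h also lay at the floor. After restimulation UCSF033_000542 and UCSF033_000543 were lower than at day 7 on slide 1, with differences of -1.79 and -1.74 log2, beside -1.84 for UCSF033_000770 and -2.18 for UCSF033_000772.

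UCSF033_000781 to UCSF033_000784 also were lower after restimulation than at rest, but started from high naive levels. On rest they differed from the 65 h array of slide 1 by -0.40, 0.62, 1.46 and 2.95 log2, in ID order, beside 1.82 and 2.08 for the pair, so UCSF033_000784 had a larger difference than either. Within slide 1 their restimulated values differed from day 7 by -1.98, -2.24, -1.48 and -2.95 log2, and their day 7 values differed from naive cells by -4.60, -4.74, -2.23 and -2.55 log2 over both naive arrays. The last probe, UCSF033_000784, lay at the floor at 65 h and after restimulation, although 1 restimulated array detected it. The differences between these probes and the pair were not tested.

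**Figure D5:**
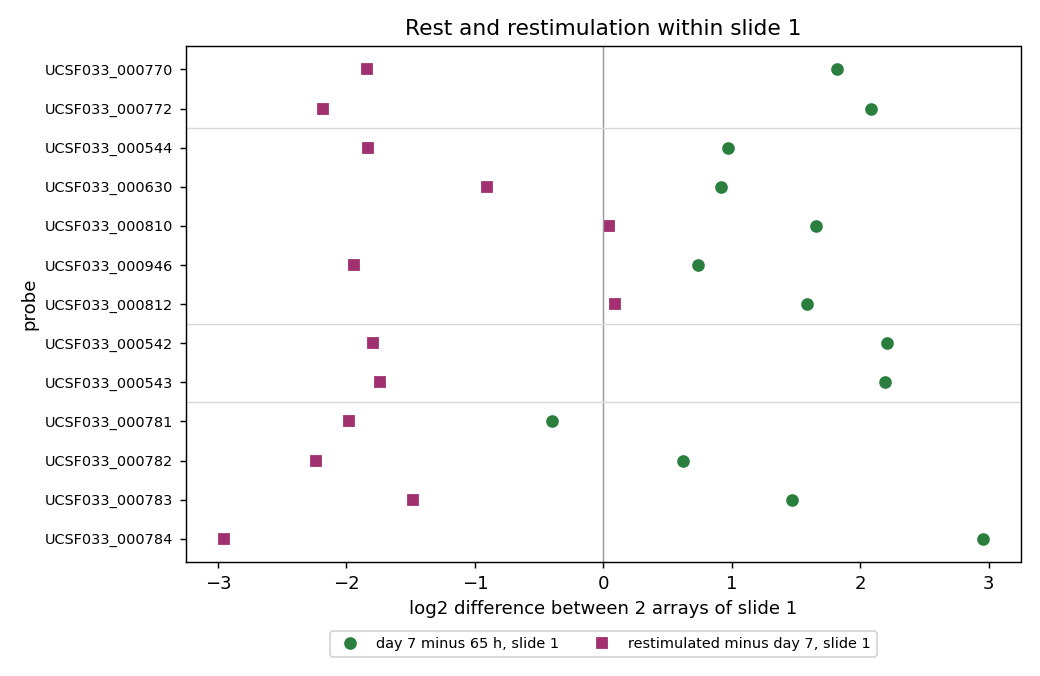
Log2 difference of day 7 from 65 h (circles) and of restimulated cells from day 7 (squares) between single arrays of slide 1, for UCSF033_000770 and UCSF033_000772, the 5 probes most like them, UCSF033_000542 and UCSF033_000543, and UCSF033_000781 to UCSF033_000784. UCSF033_000770 and UCSF033_000772 lie at 1.82 and 2.08 for rest and at -1.84 and -2.18 for restimulation.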

How the data were processed

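The authors' deposited scanner files hold spot intensity after background and detrending steps of the Agilent software, version 10.1.1.1 by the headers and 10.6 in the submitters' processing notes. The authors also deposited log2 values for 2191 probes, whose scale and centring are not given in the sources used here. Unmarked spots of a probe were averaged, divided by the array's 75th percentile over probes detected on all arrays used, raised to a floor (the 5th percentile of scaled values among detected probes) and put on the log2 scale. limma 3.58.1 in R 4.3.3 was fitted with group as the only term on 14 arrays (6 residual degrees of freedom). Benjamini-Hochberg adjustment at 0.05 was made within each comparison. The fit was tested on simulated data that were not held at a floor, unlike the pair's values from naive cells through 42 h. Slides were read from the file headers. Probes named are the pair, IDs within 5 of either, the 5 most correlated tested probes, and 2 sets for comparison. The probes, lists and tests were chosen with earlier results of these data known. The p-values cover the array-to-array spread alone, which may be technical, and few arrays limit their precision. For the pair that spread is set in part by the floor, since groups with both arrays at the floor add none to it. Comparisons holding 65 h or day 7 arrays carry no test, since those arrays chose the probes. Lists of named microRNAs, fixed for the case that IDs had names, were not used.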

Additional observations from a re-analysis of the deposited data

How the results depend on the processing

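The day 7 group has 1 array, naive to 42 h levels lie at the floor or within background, and scaled levels near the lowest detected probe of an array are imprecise. For restimulated against naive cells both probes entered the test through their detection in restimulated cells, and most alternatives share that filter. With no scaling the log2 differences were 1.38 (adjusted p = 0.219) and 1.52 (0.159). With all probes tested, that is without the filter, they were 2.12 and 2.26 and lost the call. For UCSF033_000772 all 15 arrays gave 2.16 (0.163), and all 15 with the slide as a block 2.16 (0.170). Leaving out 1 array gave 1.76 to 2.50 for UCSF033_000770 and 2.01 to 2.52 for UCSF033_000772. Restricting the test to probes detected on all arrays left neither probe in it.

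For 65 h minus naive, no scaling gave 0.17 and 0.34 log2, and the floor halved gave 1.57 for UCSF033_000770; leaving out 1 array gave 0 to 1.88 and 0 to 2.21. For day 7 minus naive, no scaling gave 2.67 and 3.27, normexp background correction 2.12 and 2.44, the floor halved 4.67 and 5.26, the floor doubled 2.67 and 3.26, and the authors' values 2.24 and 2.84. For day 7 minus 65 h, normexp gave 0.84 and 1.14 and the authors' values 1.77 and 2.35; leaving out 1 array gave 1.82 to 3.69 and 2.08 to 4.29. For restimulated minus day 7, normexp gave -0.68 and -0.97. Normexp adds an offset of 50 units before scaling, so dim probes move with the array's percentile: at 42 h both stood 1.67 log2 above naive (limma adjusted p = 0.0606), above the 1.44 and 1.47 of restimulated cells. Undetected levels follow the floor by construction, at -8.42 log2 with the floor halved and -6.42 with it doubled, where the floor used was -7.42. With all 15 arrays the 42 h level of UCSF033_000772 was -5.58. With the first 42 h array kept and the second left out, 1 of the probe tests at 6 to 42 h passed (UCSF033_000772 at 42 h, limma adjusted p = 0.00253), where 0 passed in the fit used. Levels under other scalings are on another unit and were compared as differences.

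The number of probes called, over all settings, ran from 0 to 11 at 6 h (6 in the fit used), 0 to 30 at 12 h (12), 0 to 248 at 24 h (104), 97 to 500 at 42 h (235) and 105 to 493 after restimulation (362). No paired analysis by replicate number was possible because the labels give no such numbers; the slide as a block changed neither call on 14 arrays.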
